A study of Mus musculus with 6 samples.

Results

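Mitochondrial solute carriers are the transport proteins of the inner mitochondrial membrane that the SLC25 gene family encodes. The members described here are the genes whose symbol begins with Slc25a in the array's annotation, taken by name, without Slc25a17, Slc25a20 and Slc25a37. They came to 41 genes with 88 probe sets, of 18193 genes with a single-gene probe set and 45101 probe sets on the array. A probe set is a group of short oligonucleotides that together report 1 transcript. Messenger RNA was measured in quadriceps, a large thigh muscle, of male C57/BL6 mice aged 8 weeks. The 3 wild-type mice carried no transgene according to the labels. The other 3 mice were ERRgamma transgenic animals, in which skeletal actin regulatory sequence, active in muscle fibres, drives ERRgamma. ERRgamma is an orphan nuclear receptor encoded by Esrrg. The labels do not name the founder line, and the titles number the arrays as biological replicates.

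The inner mitochondrial membrane is closed to charged metabolites, so that ATP, ADP, phosphate, citric acid cycle intermediates, amino acids and cofactors cross it largely through carriers, most of which exchange 1 solute for another. In muscle, the adenine nucleotide and phosphate carriers serve ATP synthesis, and the oxoglutarate and aspartate-glutamate carriers form the malate-aspartate shuttle, which brings reducing equivalents of cytosolic NADH into the matrix. ERR receptors bind promoters of many genes of oxidative metabolism, and the comparison of genotypes asks how muscle transcripts differ when ERRgamma is abundant.

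Values are MAS5 signals, a linear brightness scaled on each array to a trimmed mean that was 200 on all 6. Median signals were 52.1 to 56.3 in wild-type muscle against 57.1 to 61.9 in transgenic muscle. The Esrrg probe set with the highest signal read 24.1 to 71.6 in wild-type muscle against 12697 to 14427 in transgenic muscle. The other Esrrg probe sets did not pass. Their wild-type and transgenic means were 104.9 and 145.3 (limma adjusted p = 0.284), and 38.5 and 53.3 (limma adjusted p = 0.443). The muscle fibre markers Ckm, Acta1, Mb, Pygm, Actn3 and Tnnt3 summed to between 91019 and 120318 on every array, so the markers of muscle fibres were high on all of them. Of the 6, Mb, the oxygen-binding protein myoglobin, rose 2.70-fold, from 6933 ± 1671 to 18720 ± 1285 (SD, n = 3 each, limma adjusted p = 0.00018), and the other 5 did not pass. Signals of different probe sets cannot be set against each other, so the level of 1 probe set is compared only between arrays. A summed signal is likewise compared between arrays for the same list, and its brightest probe sets weigh most. Endothelial markers stood higher in transgenic muscle: 5 of 7 rose (71.4%), where 7.65% of all tested genes rose. Their summed signal was 1991 to 2230 in wild-type muscle against 3527 to 3913 in transgenic muscle. Pericyte and smooth muscle markers summed to 7271 to 8711 and 11701 to 13307, with Rgs5 and Kcnj8 of the 6 higher by limma. Rgs5 alone read 4786.2 to 5843.0 and 8606.5 to 9094.4. Fibroblast markers summed to 22535 to 26299 and 20457 to 21640, and 0 of the 5 passed by limma (3 lower at an unadjusted p under 0.05). Leukocyte markers summed to 1406.4 to 1588.6 and 1089.3 to 1488.5, and 0 of 4 tested passed. Erythroid markers, of low signal, summed to 97.0 to 116.5 and 145.5 to 183.7, and 0 of 2 tested passed. The part of these cell types in the carrier differences was not tested, and in whole muscle more cells of a type and more RNA per cell cannot be told apart. Adipocyte markers varied within genotypes, and their values are given beside the carriers that varied with them.

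Most carriers did not pass the test, and a minority rose. Of 38 genes that could be tested, 8 rose in transgenic muscle, 1 fell and 29 did not pass a limma adjusted p of 0.05. Those that rose carry aspartate and glutamate (Slc25a12), oxoglutarate (Slc25a11), glutamate (Slc25a22), basic amino acids (Slc25a29), phosphate (Slc25a3), coenzyme A (Slc25a42) and pyrimidine nucleotides (Slc25a36), or have no settled substrate (Slc25a34). The gene that fell was Slc25a16, a carrier linked to coenzyme A. The 8 risers are 21.1% of the tested carriers, where 7.65% of all 12529 tested genes rose, and the fall of 1 is 2.63%, where 5.75% of all tested genes fell. In either direction 23.7% of the carriers passed, against 13.4% of all genes. The median difference of the carriers was 0.18 on the log2(signal + 16) scale, against 0.03 over all tested genes. It was 0.10 without wild-type 1 and also without transgenic 2. The genotypes did not overlap for 14 carriers, or 36.8%, a share near the 33.3% of all genes. Each gene was read at its probe set of highest mean signal. Counted by probe set, 13 of 76 tested rose, where 6.38% of all tested probe sets rose, and 1 fell, where 5.16% of all fell.

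**Figure D1:**
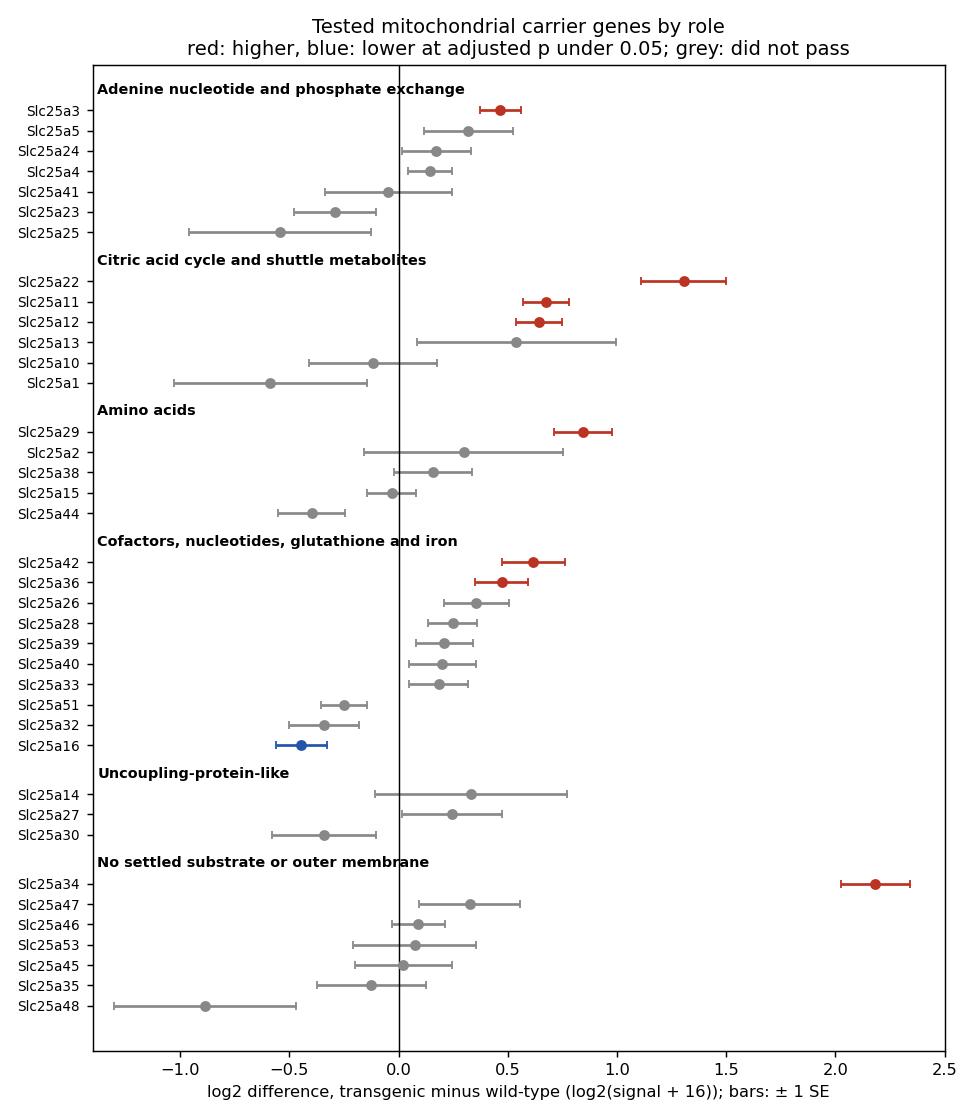
The horizontal axis gives the difference between genotypes on the log2(signal + 16) scale, transgenic minus wild-type, for the 38 tested carrier genes grouped by role, and bars are 1 standard error from limma. The differences run from -0.89 for Slc25a48, which did not pass, to 2.18 for Slc25a34, and the 8 red points are the genes that rose.

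Slc25a3, Slc25a36, Slc25a42 and Slc25a16 depend on the processing, as given beside each. With a common median set for all arrays, the median difference of all tested probe sets shifts by -0.14, from 0.048 to -0.089. In that setting 5 carriers rose (Slc25a11, Slc25a12, Slc25a22, Slc25a29 and Slc25a34), where 968 of all 26999 tested probe sets rose. Lower signals passed for 2 carriers (Slc25a16 and Slc25a44), and the carriers' median difference was 0.035. The upward share of calls over all probe sets was then 28.8%, against 55.2% with the deposited scaling.

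The gene with the largest difference was Slc25a34. Its probe set read 77.9, 92.4 and 114.6 in wild-type muscle against 489.1, 438.6 and 526.6 in transgenic muscle. Every transgenic array lay far above every wild-type array. The means were 95.0 ± 18.5 and 484.8 ± 44.2 (SD, n = 3 each), a 5.10-fold ratio. The log2 difference was 2.18 (SE 0.16, limma adjusted p = 2.79e-05), and it passed in all 17 alternative settings, between 1.79 and 2.38.

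Among the carriers with a RefSeq promoter window, Slc25a34 was also the only gene whose window held AAGGTCA, a nuclear receptor motif. Its window is therefore shown. The shorter core within this motif, AGGTCA, was not counted, and it also occurs in other windows, such as that of Slc25a45. It lies at chr4:141623785-141624084 on the minus strand of GRCm38.p6, from 250 bases before to 50 after the start of the gene. The capitals mark the match, AAGGTCA read on the opposite strand, which begins 119 bases before the start site.
Slc25a34: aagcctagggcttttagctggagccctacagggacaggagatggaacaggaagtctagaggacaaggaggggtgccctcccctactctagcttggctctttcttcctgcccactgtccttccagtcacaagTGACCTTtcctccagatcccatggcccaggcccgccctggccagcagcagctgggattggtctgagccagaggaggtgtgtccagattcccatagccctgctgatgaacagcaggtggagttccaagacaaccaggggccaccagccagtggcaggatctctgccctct
Promoter windows were given for 32 of the 41 carriers, 41 windows in all. On either strand, AAGGTCA was found in 1 of these 32 genes (3.12%) and in 5.38% of 27025 genes with windows of the same length. The longer motif TCAAGGTCA, which contains the shorter, was found in 0 of the 32 and in 0.466% of all genes. These windows are short, the array holds no measure of receptor binding, and a match is a description of letters.

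The carriers of citric acid cycle and shuttle metabolites held 3 of the 8 risers. Of 6 tested, Slc25a11, Slc25a12 and Slc25a22 rose (50%, where 7.65% of all tested genes rose). In this group 0 fell by limma (also 0 at an unadjusted p under 0.05), and Slc25a1, Slc25a10 and Slc25a13 did not pass. The glutamate carriers Slc25a22 and Slc25a18 were counted here and not with the amino acid carriers, and the shares of both groups depend on that placement. The group's median log2 difference was 0.59, from -0.59 to 1.31. Slc25a18, the second glutamate carrier, was under the signal limit of 37.8 for testing, with no array above 54.7.

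Slc25a22, a glutamate carrier that moves glutamate together with a proton, read 185.0, 175.1 and 316.6 in wild-type muscle against 565.8, 565.0 and 554.4 in transgenic muscle. The transgenic arrays lay close together, and wild-type 3 stood above the other wild-type arrays and below every transgenic array. The ratio of means was 2.49-fold and the log2 difference 1.31 (SE 0.19, limma adjusted p = 0.00183). It was between 1.14 and 1.56 over the 17 alternatives and passed in each.

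Slc25a11, the oxoglutarate carrier, exchanges oxoglutarate for malate. It read 2652, 2616 and 2220 in wild-type muscle against 3859, 4288 and 3819 in transgenic muscle, without overlap. The log2 difference was 0.68 (SE 0.10, limma adjusted p = 0.00226), a 1.60-fold ratio.

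Slc25a12 is the calcium-regulated aspartate-glutamate carrier of muscle, heart and brain. At its probe set of highest signal it read 4249, 4828 and 3908 in wild-type muscle against 6302, 7100 and 6848 in transgenic muscle, again without overlap. The log2 difference was 0.64 (SE 0.10, limma adjusted p = 0.00285), a 1.56-fold ratio. A second probe set rose by more, from 907.9 ± 121.9 to 1806 ± 227.6 (SD, n = 3 each), with a log2 difference of 0.98 (SE 0.13, limma adjusted p = 0.00103). The remaining probe set overlapped between genotypes and did not pass (0.22, limma adjusted p = 0.457). Both Slc25a11 and Slc25a12 passed in all 17 alternatives. Slc25a13, the related aspartate-glutamate carrier known from liver, read at most 34.7 in wild-type muscle against 21.5, 110.2 and 36.2 in transgenic muscle. Only transgenic 2 stood out, and the difference did not pass (limma adjusted p = 0.503).

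**Figure D2:**
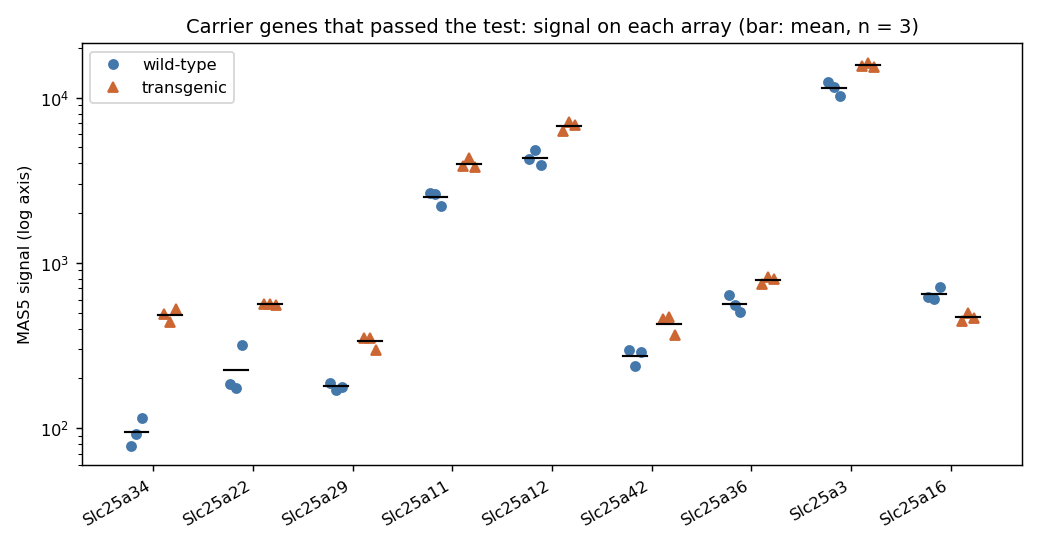
The vertical axis gives the MAS5 signal on a log axis for the 9 carrier genes that passed, with circles for the wild-type arrays, triangles for the transgenic arrays and a bar at each mean (n = 3). Transgenic signals lie above all wild-type signals for the 8 genes from Slc25a34 to Slc25a3 and below them for Slc25a16.

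The enzymes that work with these carriers were read from a list of 6 shuttle enzymes. Of them 4 rose (66.7%), 1 fell (16.7%) and 1 did not pass, where 7.65% of all tested genes rose and 5.75% fell. The cytosolic and mitochondrial aspartate aminotransferases and malate dehydrogenases are the other parts of the malate-aspartate shuttle. Got1, the cytosolic aminotransferase, read 3420, 3820 and 3259 in wild-type muscle against 8995, 9137 and 8174 in transgenic muscle. Its log2 difference was 1.32 (SE 0.10, limma adjusted p = 2.85e-05). Got2, its mitochondrial counterpart, rose from 4559 ± 611.2 to 9252 ± 145.1 (SD, n = 3 each), a log2 difference of 1.03 (SE 0.11, limma adjusted p = 0.000238). Mdh1 rose by 0.55 and Mdh2 by 0.32. Mdh2 passed narrowly (limma adjusted p = 0.0447) and in 5 of 17 alternatives, and without any 1 of the 6 arrays it did not pass, so that 3 enzymes then rose. The differences of these enzymes and of their carriers were not tested against each other.

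The glycerophosphate shuttle, the other route for cytosolic reducing equivalents, went the other way at its mitochondrial enzyme. Gpd2, mitochondrial glycerol-3-phosphate dehydrogenase, read 4029, 3942 and 4061 in wild-type muscle against 1721, 1867 and 1685 in transgenic muscle, with no overlap. The wild-type mean was 2.28-fold the transgenic mean, and the log2 difference was -1.18 (SE 0.09, limma adjusted p = 3.65e-05). The cytosolic enzyme Gpd1 read 3655, 3383 and 4855 against 3266, 3305 and 3294 and did not pass (-0.25, limma adjusted p = 0.254).

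**Figure D3:**
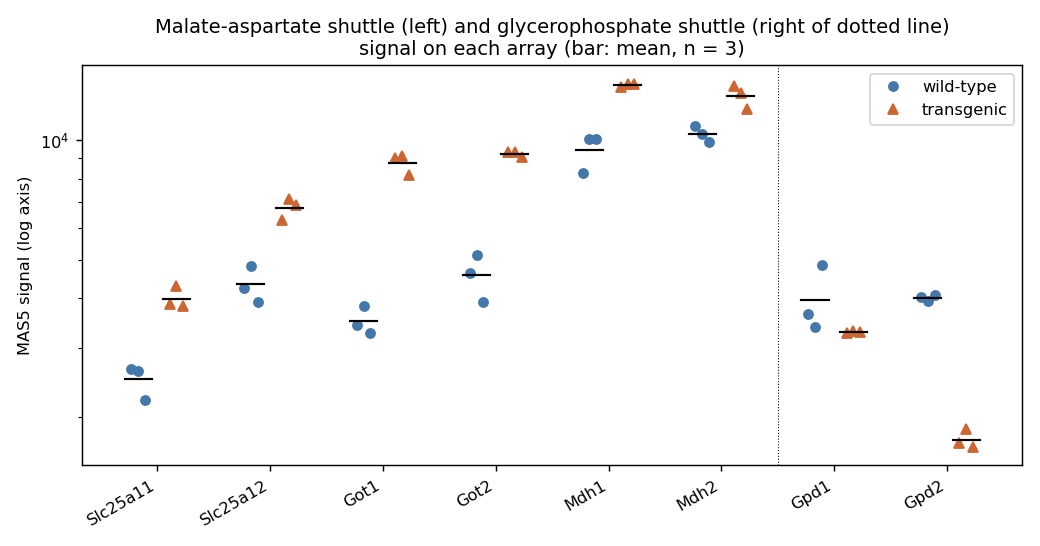
The vertical axis gives the MAS5 signal on a log axis for the malate-aspartate shuttle carriers and enzymes, left of the dotted line, and the glycerophosphate shuttle enzymes, right of it, with a bar at each mean (n = 3 per genotype). All transgenic signals exceed all wild-type signals from Slc25a11 to Mdh2, while for Gpd2 the transgenic arrays lie between 1685 and 1867 and the wild-type arrays between 3942 and 4061.

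The citrate carrier Slc25a1 and the dicarboxylate carrier Slc25a10, which supply carbon for fatty acid synthesis in fat and liver, did not pass. Slc25a1 read 302.8, 241.6 and 1058 in wild-type muscle against 225.3, 413.4 and 235.4 in transgenic muscle. Slc25a10 read 241.8, 188.3 and 429.7, and then 210.1, 370.0 and 194.4. In both genes wild-type 3 and transgenic 2 were the highest arrays of their genotypes, and the genotypes overlapped. The log2 differences were -0.59 (SE 0.44, limma adjusted p = 0.449) and -0.12 (SE 0.29, limma adjusted p = 0.845).

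Adipocyte markers were highest on the same arrays. The 5 measured genes of that list (Adipoq, Cidec, Lep, Retn and Fabp4) summed to 13854, 11500 and 26420 in wild-type and to 13441, 17366 and 12706 in transgenic muscle, and none of them was at 0 on any array. Cidea, a lipid droplet protein of brown fat, read 95.6, 40.9 and 2561 in wild-type muscle against 46.8, 537.3 and 56.5 in transgenic muscle. Ucp1, the uncoupling protein of brown fat, read 1596 on wild-type 3 and at most 117.7 on the other 5 arrays. Elovl3, also listed as a brown fat marker, was instead lowest on wild-type 3. It read 41.4, 35.8 and 25.9 in wild-type muscle against 65.2, 57.6 and 46.4 in transgenic muscle. The genotypes did not overlap for Elovl3, and it did not pass (limma adjusted p = 0.272). The part of adipose tissue in the carrier signals was not tested. Without wild-type 3 and transgenic 2 together, 6 carriers rose and 0 fell by limma, and Slc25a36, Slc25a42 and Slc25a16 were the calls lost.

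**Figure D4:**
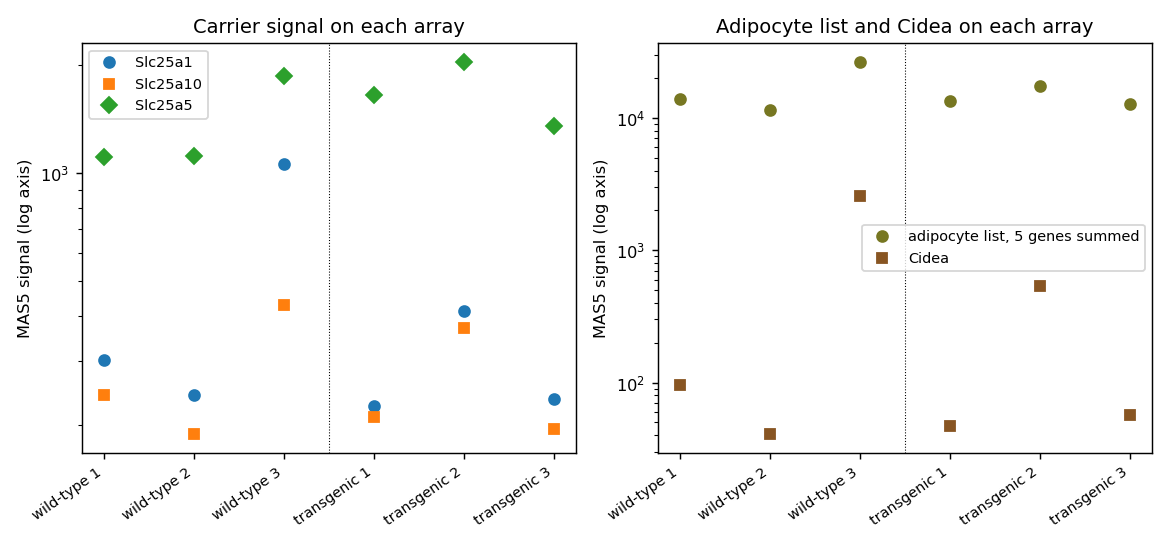
The vertical axes give MAS5 signals on a log axis for each of the 6 arrays, with Slc25a1, Slc25a10 and Slc25a5 on the left and the summed adipocyte list and Cidea on the right. Wild-type 3 and transgenic 2 are the highest arrays of their genotypes for all 5 series of points, with Slc25a1 at 1058 and 413.4.

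Among carriers of adenine nucleotides and phosphate, Slc25a3 rose (14.3%, where 7.65% of all tested genes rose) and 6 of 7 tested genes did not pass. None fell by limma (also 0 at an unadjusted p under 0.05), and the group's median log2 difference was 0.14. Slc25a3, which imports the phosphate used by ATP synthase, read 12436, 11584 and 10258 in wild-type muscle against 15532, 16309 and 15400 in transgenic muscle. The arrays did not overlap, and the log2 difference was 0.47 (SE 0.09, limma adjusted p = 0.0100). It stayed past the threshold with any 1 array left out. It did not pass with no filter on low signals (adjusted p = 0.0799), with arrays scaled to a common median (adjusted p = 0.0527) or without the intensity trend in limma (adjusted p = 0.0880). The other Slc25a3 probe set, at 81.3 to 145.0, differed by 0.40 without overlap and did not pass (limma adjusted p = 0.188).

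Slc25a4, the adenine nucleotide carrier of muscle and heart, exchanges matrix ATP for cytosolic ADP. Of its 4 probe sets, 1 rose and 3 did not pass, and no test sets the probe sets against each other. The probe set of highest signal read 21455, 19898 and 17070 in wild-type muscle against 22485, 20996 and 20843 in transgenic muscle. The genotypes overlapped there and the log2 difference of 0.14 (SE 0.10) did not pass (limma adjusted p = 0.407), and it was -0.01 with arrays scaled to a common median. Another pair of probe sets with signals from 12495 to 20731 overlapped too, at 0.17 and -0.09. The probe set of lowest signal read 223.1, 256.5 and 304.7 in wild-type muscle against 759.4, 993.5 and 941.0 in transgenic muscle. Here every transgenic array lay above every wild-type array, and the log2 difference was 1.72 (SE 0.15, limma adjusted p = 7.51e-05), a 3.43-fold ratio that passed in all 17 alternatives.

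The highest signal of any probe set was between 21878 and 28449 on the 6 arrays, and the probe set of highest Slc25a4 signal read from 17070 to 22485, near that top. Whether it still follows transcript level there was not tested, nor was which part of the transcript each probe set reports.

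**Figure D5:**
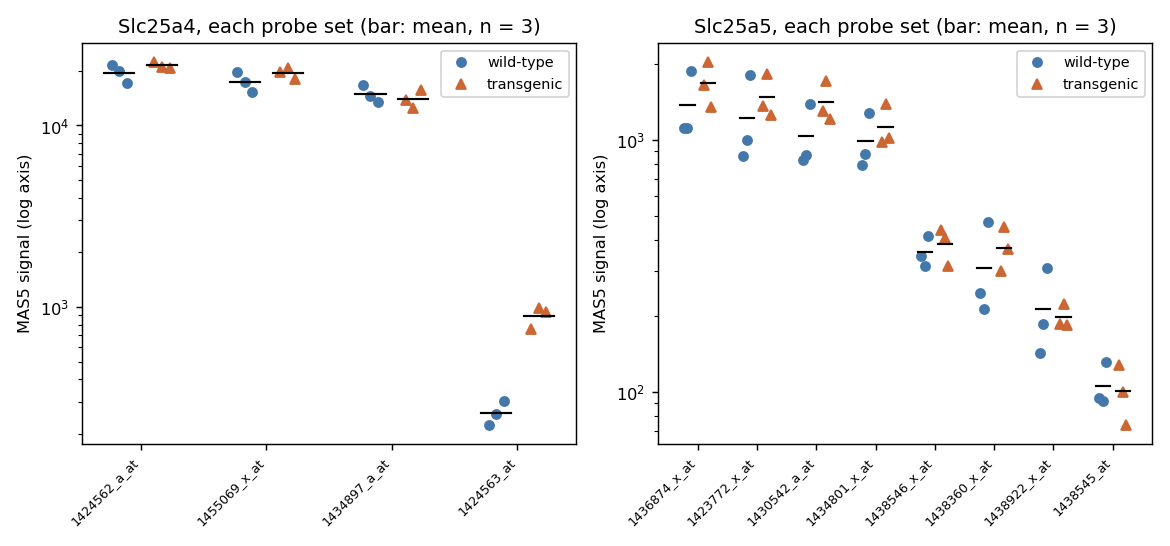
The vertical axes give the MAS5 signal on a log axis for each probe set of Slc25a4, left, and Slc25a5, right, with circles for wild-type arrays, triangles for transgenic arrays and a bar at each mean (n = 3). The genotypes overlap at the 3 bright Slc25a4 probe sets and at all 8 Slc25a5 probe sets, and separate at the Slc25a4 probe set with signals from 223.1 to 993.5.

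Slc25a5, the adenine nucleotide carrier of most dividing and non-muscle cells, read 1113, 1115 and 1866 in wild-type muscle against 1651, 2038 and 1349 in transgenic muscle at its probe set of highest signal. Wild-type 3 lay within the transgenic range and the other wild-type arrays below it. The log2 difference of 0.32 (SE 0.21) did not pass (limma adjusted p = 0.368). At that probe set Slc25a5 passed in 1 of 17 alternatives, the fit without wild-type 3 (0.57, limma adjusted p = 0.0395). It differed by 0.17 without transgenic 2 (limma adjusted p = 0.694) and by 0.42 without both arrays (limma adjusted p = 0.0562). None of its 8 probe sets passed with all arrays, and their differences ran from -0.08 to 0.46. Slc25a31, the testis form, was not tested, with no array above 14.2. The carriers that exchange ATP-magnesium for phosphate, Slc25a23, Slc25a24, Slc25a25 and Slc25a41, overlapped between genotypes, with log2 differences of -0.29, 0.17, -0.54 and -0.05. Slc25a25 varied widely within genotypes, with 277.1 to 556.4 in wild-type muscle against 146.7 to 617.9 in transgenic muscle.

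Of 5 amino acid carriers, Slc25a29 rose (20%, where 7.65% of all tested genes rose). In this group 0 fell by limma (1 at an unadjusted p under 0.05, Slc25a44) and 4 did not pass. Slc25a29, which carries basic amino acids such as arginine and lysine, read 187.5, 170.4 and 178.5 in wild-type muscle against 352.7, 353.0 and 298.0 in transgenic muscle. The arrays did not overlap, and the log2 difference was 0.84 (SE 0.13, limma adjusted p = 0.00265), a 1.87-fold ratio. It passed in all 17 alternatives. The genotypes were also apart at each of the other 4 probe sets of this gene, of which 3 rose, by 0.93, 1.06 and 1.97. The remaining probe set, at 0.62, missed the threshold (limma adjusted p = 0.0521). Probe sets with _x_at in their name can match other transcripts as well. They include the probe sets read for this gene, for Slc25a5 and for Slc25a39.

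The branched-chain amino acid carrier Slc25a44 read 278.5, 265.2 and 346.9 in wild-type muscle against 205.6, 255.5 and 202.2 in transgenic muscle. The genotypes did not overlap but the difference of -0.40 (SE 0.15) did not pass (limma adjusted p = 0.130), except with arrays scaled to a common median. The ornithine carriers Slc25a15 and Slc25a2 and the glycine carrier Slc25a38 overlapped between genotypes at their probe sets of highest signal, at -0.03, 0.30 and 0.16. The other Slc25a15 probe set read 102.6 to 116.7 in wild-type muscle against 32.8 to 94.0 in transgenic muscle. It did not overlap, and its difference of -0.67 did not pass (limma adjusted p = 0.168).

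Carriers of cofactors, nucleotides, glutathione and iron held 2 of the 8 risers and the 1 gene that fell. Of 10 tested, Slc25a36 and Slc25a42 rose (20%, where 7.65% of all tested genes rose). Slc25a16 fell (10%, where 5.75% of all tested genes fell) and 7 did not pass. The genotypes did not overlap for 7 of the 10 (70%), where 33.3% of all tested genes did not overlap. The 7 are those 3 genes along with Slc25a26 and Slc25a28 on the higher side and Slc25a32 and Slc25a51 on the lower side. This group had the largest such share. In the other carrier groups it ran from 0% to 50%, and over all tested carriers it was 36.8%. Slc25a42, which takes coenzyme A into the matrix, read 295.1, 238.5 and 288.6 in wild-type muscle against 455.6, 468.8 and 364.3 in transgenic muscle. The log2 difference was 0.62 (SE 0.15, limma adjusted p = 0.0206). It did not pass without wild-type 2 (adjusted p = 0.0871), without transgenic 1 (adjusted p = 0.0815) or without transgenic 2 (adjusted p = 0.0738), nor with arrays scaled to a common median (adjusted p = 0.0508) or without the intensity trend (adjusted p = 0.0689).

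Slc25a36, a carrier of pyrimidine nucleotides, read 641.3, 556.7 and 504.2 in wild-type muscle against 749.5, 820.4 and 801.5 in transgenic muscle. The log2 difference was 0.47 (SE 0.12, limma adjusted p = 0.0296), and its other probe sets did not pass, at 0.35 and 0.24. With 1 array left out, Slc25a36 passed only without wild-type 1, and its adjusted p was 0.0971 when wild-type 2 was dropped and 0.0605 for wild-type 3, and 0.0674, 0.0853 and 0.0772 for transgenic 1, 2 and 3. It also missed the threshold with a common median (adjusted p = 0.129), without the intensity trend (adjusted p = 0.0962) and with the replicate number as a block (adjusted p = 0.0524). The related pyrimidine carrier Slc25a33 overlapped between genotypes, at 0.18.

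Slc25a16 was the only carrier that fell by limma with all arrays and the deposited scaling. It read 620.7, 604.8 and 712.7 in wild-type muscle against 445.4, 499.9 and 464.2 in transgenic muscle, and the genotypes did not overlap. The log2 difference was -0.44 (SE 0.12, limma adjusted p = 0.0349). With any 1 of the 6 arrays left out it did not pass, with adjusted p of 0.0906, 0.0709 and 0.0759 without wild-type 1, 2 and 3, and 0.117, 0.0515 and 0.0811 without transgenic 1, 2 and 3. Its adjusted p was 0.0978 without the intensity trend and 0.0608 with the replicate number as a block.

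The others of this group were nearer to 0. Slc25a26, which carries the methyl donor S-adenosylmethionine, differed by 0.36 (limma adjusted p = 0.156), and Slc25a28, mitoferrin 2 of iron import, by 0.25 (limma adjusted p = 0.196). Slc25a32, the folate and FAD carrier, differed by -0.34 (limma adjusted p = 0.213), and Slc25a51, the NAD carrier, by -0.25 (limma adjusted p = 0.165) at 1 of 3 probe sets, with the others at 0.14 and -0.28. The glutathione carrier Slc25a39 was among the 4 carriers with the highest mean signal. It read 3026, 2747 and 3879 in wild-type muscle against 4003, 3608 and 3455 in transgenic muscle, and its log2 difference of 0.21 (SE 0.13) did not pass (limma adjusted p = 0.350). A probe set of Slc25a39 under the limit for testing read 4.6, 9.8 and 9.7 in wild-type muscle against 18.3, 83.0 and 76.8 in transgenic muscle. The 4 tested probe sets of Slc25a39 did not pass. The related carrier Slc25a40 overlapped too, at 0.20.

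The carriers that resemble uncoupling proteins gave no call. Slc25a14, Slc25a27 and Slc25a30 overlapped between genotypes at 0.33, 0.24 and -0.34, with 0 rises and 0 falls by limma and also 0 at an unadjusted p under 0.05. Another pair of Slc25a30 probe sets read lower on every transgenic array than on any wild-type array. At the first, wild-type arrays read 241.9, 322.2 and 198.2 and transgenic arrays 164.2, 159.9 and 168.9, and the difference of -0.56 (SE 0.18) did not pass (limma adjusted p = 0.0674).

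Among carriers without a settled substrate, and Slc25a46 of the outer membrane, Slc25a34 was the only one of 7 tested that passed by limma at its probe set. That is 14.3% higher, where 7.65% of all tested genes rose. Slc25a46 read between 1069 and 1439 on all 6 arrays, with a difference of 0.09. Slc25a35, Slc25a45, Slc25a47, Slc25a48 and Slc25a53 overlapped between genotypes, from -0.89 for Slc25a48 to 0.33 for Slc25a47. Slc25a54 was not tested, with no array above 24.5.

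Transgenic 2 was the array with the highest signal of its genotype for 25 of the 38 tested carriers, and its carriers lay above the mean of the other transgenic arrays by a median of 0.14. The other 5 arrays deviated by between -0.09 and 0.02. Without transgenic 2, 6 carriers rose, and also 6 without wild-type 2 or without transgenic 1. The number was 7 without transgenic 3, and 8 without wild-type 1 or without wild-type 3.

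Other mitochondrial transport genes, among them regulators such as Micu2, were read from a list of 28 genes, of which 23 had a single-gene probe set. Higher signals passed in 6 (26.1%) and lower in 2 (8.70%), where 7.65% of all tested genes rose and 5.75% fell. The other 15 of the 23 missed the threshold. The median difference was 0.19, against 0.03 over all tested genes. Ucp3, the uncoupling protein of skeletal muscle and a relative of the carriers, read 518.2, 749.9 and 418.3 in wild-type muscle against 1073, 1659 and 1309 in transgenic muscle. It rose without overlap by 1.26 (SE 0.21, limma adjusted p = 0.00343), and in all 17 alternatives. Sfxn5, of the sideroflexin family, rose by 0.93 (SE 0.22, limma adjusted p = 0.0224), and Micu2, a gatekeeper of the mitochondrial calcium uniporter, fell by 0.54 on the log2 scale (SE 0.12, limma adjusted p = 0.0182). Sfxn5 passed in 10 of 17 alternatives, and of the single arrays only leaving out wild-type 3 kept its call. Micu2 passed in 12 of 17, and missed the threshold without wild-type 2, transgenic 1 or transgenic 2. Leaving out 1 array lowered the number that rose: to 5 for wild-type 3, to 3 for transgenic 3, and to 2 for each of the remaining 4 arrays. The number that fell was 0 without wild-type 2, transgenic 1 or transgenic 2, and 1 without wild-type 1.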

How the data were processed

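Total RNA (5 µg per sample) was taken with Trizol and labelled as biotinylated cRNA, per the labels' protocols. The values deposited by the authors are linear intensity from MAS5, the tool named in the submitters' processing notes. Its version, settings and detection calls are not given here in the sources used. A shared trimmed mean is the only scaling visible in the values. Signals were tested as log2(signal + 16), which understates changes of low signals. Of 45101 probe sets, 64 controls and those with a mean signal at or below the 40th percentile (37.8) were left out, leaving 26995. The two-sided test was that of limma 3.58.1 (lmFit and eBayes, trend by intensity) under R 4.3.3, with p-values adjusted by Benjamini-Hochberg across the 26995 and called at 0.05. The procedure was tested on simulated data. Precision is limited by having 3 arrays of each genotype.

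Gene names are those of the platform annotation, and all 88 carrier probe sets matched the GRCm38.p6 gene table by Entrez identifier with 0 symbols changed. The promoter sequences are from RefSeq. Each gene was read at its single-gene probe set of highest mean signal over the 6 arrays. Full values are given for carriers that passed (up to 10 each way), the 4 of highest mean signal, the adenine nucleotide and phosphate carriers and any carrier with opposed calls (0 were found), and from each other list for the 3 passing genes of largest change. Other genes were described by their place in a group, and where their values are given they were chosen after these were seen. The members and lists were chosen with earlier results of these data known. Alternatives left out each array, blocked on replicate number, weighted arrays, or changed the constant, the filter, the scaling, the eBayes step or how probe sets stand for a gene. Leaving out wild-type 3 with transgenic 2 was chosen after seeing the data. Matplotlib drew the plots, in version 3.10.9.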

Additional observations from a re-analysis of the deposited data

How the results depend on the processing

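Slc25a11, Slc25a12, Slc25a22, Slc25a29, Slc25a34 and the low-signal probe set of Slc25a4 kept their direction and passed in all 17 alternatives that refit them. With arrays scaled to a common median, 5 carriers rose and 2 fell. The carriers' median difference was then 0.035, against -0.089 over all tested probe sets. In that setting 2 other mitochondrial transport genes rose, and Slc25a4 at its probe set of highest signal reversed to -0.0087. Without the intensity trend, 5 carriers rose and 0 fell, with 1 other transport gene and 2 shuttle enzymes higher, and with no filter 2 other transport genes rose. With any 1 array left out, the carriers that rose numbered 6 to 8, those that fell 0, and the other transport genes that rose 2 to 5. Without both wild-type 3 and transgenic 2, a choice made after seeing the data, 0 carriers fell and the median was 0.071. With the replicate block, 7 carriers rose, 0 fell and 3 other transport genes rose. Same-numbered arrays correlated at 0.07, -0.08 and -0.02 in their deviations from the genotype means, so the numbers were not taken to pair animals, and not every array correlated best with its own number. The remaining alternatives (other constants, a stricter filter, quantile normalization, robust eBayes, array weights and all probe sets of a gene) left the counts of carriers within 1.5 times those reported. The cause of these changes was not tested. Detection calls were not used here, so whether low signals such as those of Slc25a13 or Slc25a31 lie above background is not given.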
